A study of Mus musculus with 8 samples.

Results

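Gap junction and intercalated disc genes were examined in hearts of mice given digoxin. The set holds 10 genes of the 22180 tested, and all 10 were measured. They are 5 connexin genes of heart muscle and vessels (Gja1, Gja5, Gjc1, Gja4 and Gja3) and 5 genes of the disc's scaffold and anchoring junctions (Tjp1, Cdh2, Dsp, Pkp2 and Jup). The genes were chosen by name and function with the digoxin results already known, so their values are given as a description and not as a test.

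The digoxin group had 5 arrays, each of heart RNA and taken as 1 wild-type male mouse, killed at ZT9 after an intraperitoneal injection of digoxin, 1 mg/kg, at ZT5. The vehicle group had 3 arrays from mice of the same kind that received the solvent alone (ethanol and propylene glycol with citric acid and sodium phosphate) at the same hours. All mice were aged 8 to 10 weeks. Their strain label is C57BL6JRj, which the growth protocol writes as C57BL6/J. ZT hours count from lights-on at ZT0. The vehicle label names both ZT5 and ZT9 for the killing, and the design text names ZT9 for all mice. Digoxin is a cardiac glycoside that inhibits the Na/K-ATPase. A vehicle group of 4 is mentioned in the series' design, of which 1 sample was not analysed here. RNA came from whole pulverised heart tissue, so fewer cells of a type and less RNA per cell cannot be told apart.

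Connexins assemble by sixes into channels that dock between neighbouring cells and form gap junctions, through which the cardiac impulse passes. In working heart muscle these junctions lie in the intercalated disc, beside desmosomes and the cadherin-based fascia adherens that hold the cells together. Connexin 43 (Cx43, the product of Gja1) is the main connexin of ventricular muscle, and its protein turns over within hours. Cx40 (Gja5) is found in atrial muscle, the His-Purkinje system and arterial endothelium, and Cx37 (Gja4) in arterial endothelium.

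The sequences below are the 250 bases before the RefSeq start site (GRCm38.p6, written 5′ to 3′ on the gene's strand) of Gja1, Gja5 and Gja4. Gja1 (chr10:56377050-56377299, plus strand) and Gja5 (chr3:97032152-97032401, plus strand) had the lowest log2 changes of the connexin genes described. Gja4 (chr4:127314040-127314289, minus strand), the other connexin gene of arterial endothelium, had no log2 change of that size. Capitals mark matches to the motifs described next.
Gja1: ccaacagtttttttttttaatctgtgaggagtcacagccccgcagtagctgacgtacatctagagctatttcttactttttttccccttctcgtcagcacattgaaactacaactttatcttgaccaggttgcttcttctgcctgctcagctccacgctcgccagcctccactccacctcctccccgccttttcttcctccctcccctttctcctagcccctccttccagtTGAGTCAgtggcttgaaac
Gja5: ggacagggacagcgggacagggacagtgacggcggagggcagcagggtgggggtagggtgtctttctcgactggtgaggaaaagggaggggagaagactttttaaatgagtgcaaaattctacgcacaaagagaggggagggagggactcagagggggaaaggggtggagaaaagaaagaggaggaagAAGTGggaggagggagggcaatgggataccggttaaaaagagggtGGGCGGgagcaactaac
Gja4: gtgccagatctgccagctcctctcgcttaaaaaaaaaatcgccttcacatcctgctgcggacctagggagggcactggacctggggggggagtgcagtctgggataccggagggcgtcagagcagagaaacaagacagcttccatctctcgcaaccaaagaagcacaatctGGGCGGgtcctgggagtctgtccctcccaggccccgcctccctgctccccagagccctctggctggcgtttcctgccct
The table of promoters held 7 of the 10 genes. Both strands were searched for an AP-1 site (TGANTCA), an Sp1 GC box (GGGCGG), a T-box site (GTGTGA), an NKX site (AAGTG), an E-box (CACGTG) and a glucocorticoid response element. The Gja1 window held an AP-1 match, 19 to 13 bases before the start, and no match to the others. Of 32851 promoter windows of the same length, 6.75% held an AP-1 match. The Gja5 window held an NKX match 62 to 58 bases before the start and a GC box at 17 to 12 bases, and the Gja4 window a GC box at 79 to 74 bases. GC boxes lay in 32.7% of all windows and NKX matches in 40.7%, against 12.3% for the T-box site, 6.02% for the E-box and 0.0365% for the glucocorticoid element, and no shown match overlapped another. AP-1 matches were absent from the windows of Gja3, Gja4, Gja5, Tjp1, Dsp and Jup. A match is a description of the letters and not of binding.

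Values below are the authors' log2 expression, centred for each probe set on a constant that is not stated. They compare arrays for 1 gene and give no level, so the heart label could not be checked against the presence of marker genes, and genes cannot be ranked by abundance. A log2 change is the digoxin mean minus the vehicle mean, with the SE and 95% interval of the limma fit over all genes. The interquartile range of all probe sets was 0.216 on vehicle replicate 3 and 0.079 to 0.115 on the other 7 arrays, and log2 changes of the 10 genes that moved by over 1.5 times without that array are also given without it.

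Gja1 had the largest difference of the 10 genes. Its centred log2 values were -0.72, -0.45, -0.82, -0.77 and -0.50 in digoxin hearts 1 to 5, against 0.083, -0.086 and 0.00 in vehicle hearts 1 to 3. All 5 digoxin hearts lay below all 3 vehicle hearts. The gap between the groups was wider than the spread within the vehicle group, but not wider than that within the digoxin group. The digoxin hearts averaged -0.65 ± 0.17 (SD, n = 5), against a vehicle mean of -0.0011 ± 0.085 (SD, n = 3). The log2 change of -0.65 (SE 0.093, 95% interval -0.86 to -0.44) corresponds to a digoxin signal 0.637 times that of vehicle. Of all genes tested, 0.0947% had a lower log2 change.

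Gja1 passed limma's threshold, an adjusted p of 0.05 over all genes (adjusted p = 0.0128, two-sided), and the other 9 genes did not. Of all genes tested, 1.36% were called, with 0.947% of all genes higher and 0.415% of all genes lower in digoxin hearts. Since Gja1 was chosen with this result known, nothing is read from the count. The call was lost without vehicle replicate 1 (adjusted p = 0.0534) and was kept when any of the other 7 arrays was omitted, with a log2 change between -0.70 and -0.61 over all 8 omissions.

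**Figure D1:**
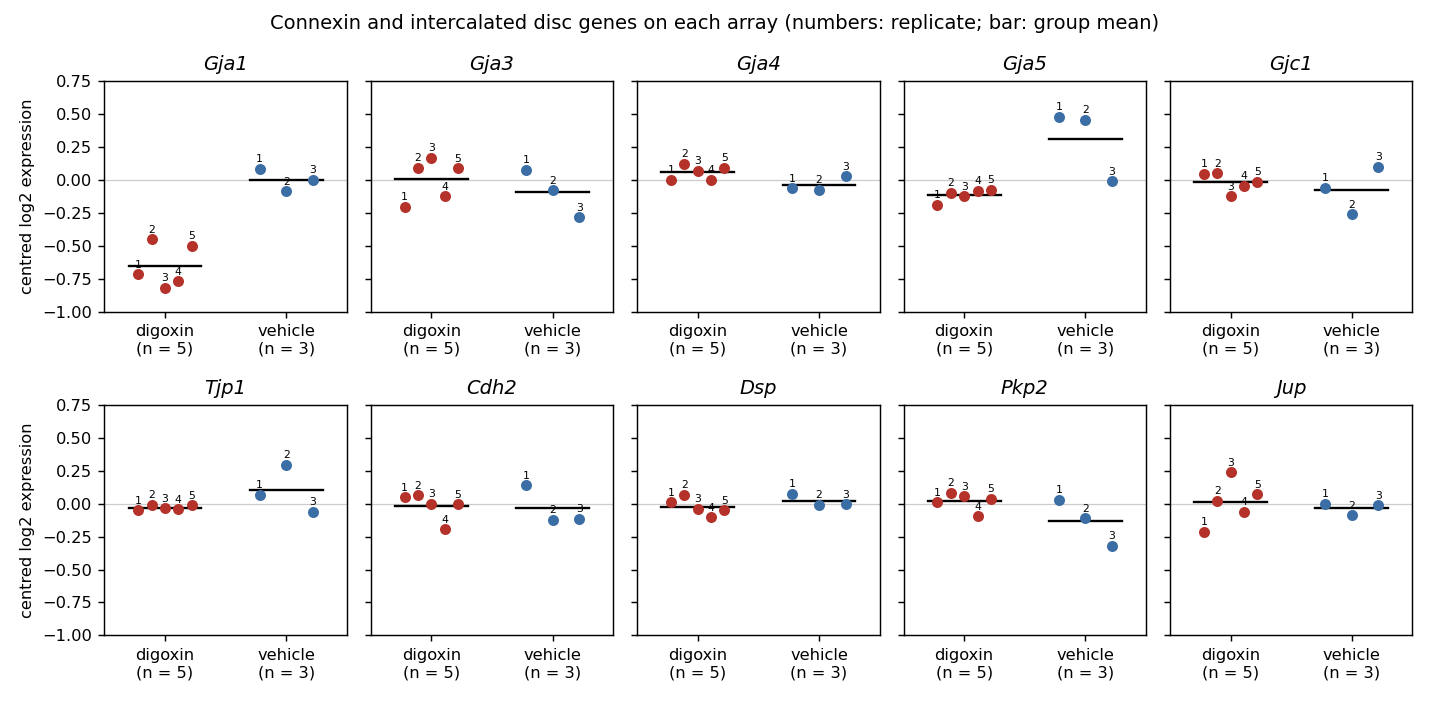
Centred log2 expression (y axis) of the 10 genes on each array, with digoxin hearts in red on the left of each panel and vehicle hearts in blue on the right. Points are arrays numbered by replicate and bars are group means. Gja1 separates the groups by the widest margin, and in Gja5 the vehicle arrays 1 and 2 stand at 0.48 and 0.45 while array 3 stands at -0.0095.

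Gja5 had the next largest difference, and it rested on part of the vehicle group. The values were -0.19, -0.097, -0.12, -0.083 and -0.074 in digoxin hearts, against 0.48, 0.45 and -0.0095 in vehicle hearts. The groups did not overlap, but vehicle heart 3 lay close to the digoxin hearts and far from the other vehicle hearts. The digoxin mean was -0.11 ± 0.047 (SD, n = 5), against 0.31 ± 0.28 (SD, n = 3) for vehicle, and the log2 change was -0.42 (SE 0.10, 95% interval -0.66 to -0.18). It was not among the genes called by limma with all arrays (adjusted p = 0.119). Without vehicle replicate 3 the log2 change was -0.58 (SE 0.045, adjusted p = 0.0011), and without vehicle replicate 1 it was -0.34. The Gja5 values come from 1 probe set. Another, annotated to Gpr89 as well, was not used and had a higher mean in digoxin hearts.

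Gja5 is an atrial gene as well as a vascular one, and atrial marker genes varied widely between hearts. The mean over 7 atrial marker genes was 0.38, -0.28, 0.996, 1.79 and -0.43 in digoxin hearts, against 2.33, 1.68 and 0.27 in vehicle hearts. The vehicle hearts with high Gja5 were those with high atrial markers, and digoxin heart 4, at 1.79 for the atrial markers, had a Gja5 value of -0.083. All 7 atrial markers had lower means in digoxin hearts (median log2 change -0.94), their groups overlapped, and limma called none of them (0 of 7 also at an unadjusted p of 0.05). Myl7, the atrial myosin light chain gene, was picked as an example after its values were seen. It read 1.12, -0.65, 2.01, 1.77 and -1.13 in digoxin hearts, against 2.91, 3.33 and 0.00 in vehicle hearts. With the atrial mean as a covariate, an alternative added after the data were seen, the log2 change of Gja5 was -0.33 (SE 0.10, adjusted p = 0.164) and that of Gja1 was -0.73 (SE 0.095, adjusted p = 0.0126). Within the digoxin group, Gja1 was highest in hearts 2 and 5, which had the lowest atrial means. What part atrial tissue has in the Gja5 and Gja1 values was not tested.

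**Figure D2:**
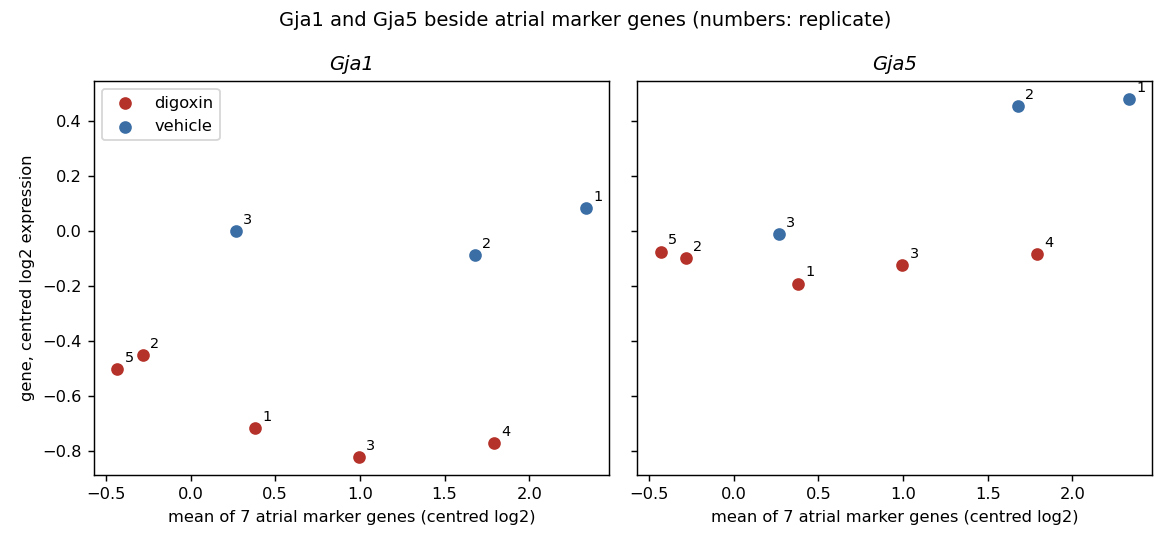
Centred log2 expression of Gja1 (left) and Gja5 (right) on the y axes against the mean centred log2 value of 7 atrial marker genes on the x axes, with digoxin hearts in red and vehicle hearts in blue, numbered by replicate. Gja1 is lower in every digoxin heart than in every vehicle heart. Atrial means span -0.43 to 1.79 in digoxin hearts and 0.27 to 2.33 in vehicle hearts, so the groups share only part of the range. Gja5 is high in vehicle hearts 1 and 2 alone, which stand at 2.33 and 1.68 for the atrial markers.

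Gjc1, which encodes Cx45, a further cardiac connexin known from nodal cells and the early heart, overlapped between the groups. Its values were 0.045, 0.049, -0.13, -0.044 and -0.014 in digoxin hearts, against -0.059, -0.26 and 0.10 in vehicle hearts. The vehicle hearts spread over a wider range than the digoxin hearts and enclosed them. The log2 change was 0.055 (95% interval -0.13 to 0.24), and single omissions moved it as low as -0.038 (vehicle replicate 2 left out) and as high as 0.14 (vehicle replicate 3 left out).

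Gja4 differed little between the groups. It read 0.00, 0.12, 0.067, 0.00 and 0.093 in digoxin hearts, against -0.064, -0.074 and 0.028 in vehicle hearts. Vehicle heart 3 lay within the digoxin range and the other vehicle hearts below it. Its log2 change was 0.093 (SE 0.048, 95% interval -0.016 to 0.20). Gja3, whose product Cx46 is best known from the lens, read -0.20, 0.091, 0.17, -0.12 and 0.089 in digoxin hearts, against 0.076, -0.078 and -0.28 in vehicle hearts. The groups overlapped over most of their range. Its log2 change was 0.099 (95% interval -0.14 to 0.34), and single omissions moved it as low as 0.0054 (vehicle replicate 3 left out) and as high as 0.18 (vehicle replicate 1 left out).

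Tjp1 encodes ZO-1, a scaffold that binds the tail of Cx43 and limits the size of gap junction plaques. Its values were -0.049, -0.0097, -0.036, -0.044 and -0.013 in digoxin hearts, against 0.069, 0.30 and -0.064 in vehicle hearts. The digoxin hearts were close together, and vehicle hearts lay on both sides of them. The log2 change was -0.13 (95% interval -0.30 to 0.035), and single omissions moved it as low as -0.21 (vehicle replicate 3 left out) and as high as -0.033 (vehicle replicate 2 left out).

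Among the 4 genes of anchoring junctions, the groups overlapped in each. Cdh2 encodes N-cadherin, the adhesion receptor of the fascia adherens. It read 0.049, 0.061, 0.00, -0.20 and -0.0038 in digoxin hearts, against 0.14, -0.12 and -0.12 in vehicle hearts. The groups overlapped, with digoxin heart 4 apart from the rest of its group. The log2 change was 0.016 (95% interval -0.17 to 0.20), and its 2 probe sets had 0.023 and 0.0093. Its direction was not settled: omitting vehicle replicate 1, 2 or 3 gave 0.10, -0.028 and -0.025 in that order, and it also turned below 0 when digoxin replicate 1 or 2 was omitted.

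Dsp encodes desmoplakin, which ties desmosomes to desmin filaments. It read 0.0098, 0.067, -0.042, -0.10 and -0.051 in digoxin hearts, against 0.074, -0.0079 and -0.0042 in vehicle hearts. The groups overlapped, and the log2 change of -0.044 had the interval -0.16 to 0.068. Single omissions moved it as low as -0.067 (digoxin replicate 2 left out) and as high as -0.018 (vehicle replicate 1 left out). Jup encodes plakoglobin, shared by desmosomes and the fascia adherens. It read -0.21, 0.022, 0.24, -0.061 and 0.070 in digoxin hearts, against -0.0011, -0.089 and -0.014 in vehicle hearts. Here the digoxin hearts spread more widely and enclosed the vehicle hearts, with a log2 change of 0.046 (95% interval -0.16 to 0.25). Single omissions moved it as low as -0.011 (digoxin replicate 3 left out) and as high as 0.10 (digoxin replicate 1 left out).

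Pkp2 encodes plakophilin-2, a desmosomal armadillo protein that in cultured heart cells also affects Cx43 at the disc. It read 0.0084, 0.083, 0.055, -0.097 and 0.035 in digoxin hearts, against 0.029, -0.11 and -0.32 in vehicle hearts. Vehicle heart 3 was the lowest, and heart 1 lay within the digoxin range. The log2 change was 0.15 (95% interval -0.026 to 0.33), the largest of the 5 disc genes. Single omissions moved it as low as 0.058 (vehicle replicate 3 left out) and as high as 0.23 (vehicle replicate 1 left out).

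Of the 10 genes, 6 had higher and 4 had lower means in digoxin hearts, where 44.4% of all genes tested had higher means, with a median log2 change of 0.031, against -0.011 over all genes tested. The groups did not overlap in 2 of the 10, Gja1 and Gja5, both lower in digoxin hearts, and they did not overlap in 8.16% of all genes tested, 4.40% higher and 3.76% lower in digoxin hearts. For the 8 genes other than Gja1 and Gja5, the 95% intervals lay between -0.30 (Tjp1) and 0.34 (Gja3), so these data bound their differences at about that size and do not show them to be 0. The mean over 10 cardiomyocyte markers ranged from -0.057 to 0.039 in digoxin hearts and from -0.035 to 0.031 in vehicle hearts, and limma called none (1 of 10 at an unadjusted p of 0.05, as were 2 of the 10 connexin and disc genes and 12.3% of all genes tested). That marker was Myl2, the gene of the ventricular myosin light chain, which stood at -0.28 (SE 0.092, adjusted p = 0.244), with every digoxin heart below every vehicle heart. Over 9 smooth muscle and pericyte markers the mean ranged from 0.017 to 0.38 in digoxin hearts and from 0.0083 to 0.14 in vehicle hearts. For 8 fibroblast markers it ranged from -0.066 to 0.16 in digoxin hearts and from 0.00076 to 0.19 in vehicle hearts. Limma called none of either list (1 of 9 and 2 of 8 at an unadjusted p of 0.05). The part of any of these cells in the values of the 10 genes was not tested.

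Other genes of the same structures were taken from 6 lists, which hold 112 measured genes. Together, 3 rose and none fell. Limma called 1.36% of all genes tested, 0.947% higher and 0.415% lower in digoxin hearts. Of the 112, 22 had an unadjusted p under 0.05, against 12.3% of all genes tested. The same shares over all genes stand beside the counts of each list below. Beside the genes chosen by rule, those with an unadjusted p under 0.05 and no overlap of the groups are named from these lists and from the cardiomyocyte and endothelial markers, and they were picked after their values were seen. The median log2 change over the 112 was 0.003. Groups did not overlap in 19 of the 112, against the 8.16% of all genes tested given above.

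None of 14 other connexin and pannexin genes was called by limma (1 of 14 at an unadjusted p of 0.05). Their median log2 change was -0.054, and the groups overlapped in all 14. Gjc3 stood at -0.15 (SE 0.056, adjusted p = 0.332) and the pannexin gene Panx2 at -0.12 (SE 0.058, adjusted p = 0.444). Gjc3 was the furthest from 0 of the 14. Panx2 stood at -0.054 without vehicle replicate 3.

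None of 20 other desmosome and fascia adherens genes was called (3 of 20 at an unadjusted p of 0.05), and the median was 0.040. Pkp4 encodes p0071, an armadillo protein related to the plakophilins. It read 0.19, 0.24, 0.38, 0.21 and 0.36 in digoxin hearts, against 0.041, -0.032 and -0.26 in vehicle hearts, with a log2 change of 0.36 (SE 0.078, adjusted p = 0.0734). Vcl, the gene of vinculin, which couples cadherins to actin, read 0.20, 0.27, 0.17, 0.060 and 0.17 in digoxin hearts, against -0.0080, -0.21 and -0.059 in vehicle hearts. Its log2 change was 0.27 (SE 0.062, adjusted p = 0.0988). Xirp1, the gene of the actin-binding disc protein Xin, stood at 0.20 (SE 0.060, adjusted p = 0.210). In these 3 genes every digoxin heart lay above every vehicle heart, and none of them passed the test.

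Among 18 channels and scaffolds of the disc, 1 rose and none fell (3 of 18 at an unadjusted p of 0.05), with a median of 0.060. The gene that rose was Sptan1, which encodes alpha-II spectrin of the membrane skeleton. It read 0.33, 0.30, 0.26, 0.35 and 0.21 in digoxin hearts, against -0.0036, 0.10 and 0.00 in vehicle hearts, a log2 change of 0.26 (SE 0.049, adjusted p = 0.0462 in limma). The groups were well apart, yet omitting any of the 8 arrays ended the call (adjusted p up to 0.120, with digoxin replicate 2 omitted) and with the atrial mean as a covariate (adjusted p = 0.057).

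Kcnj2, the gene of the inward rectifier channel Kir2.1, was the lowest of this list. It read -0.65, -0.51, -0.32, -0.49 and -0.18 in digoxin hearts, against 0.25, -0.045 and 0.00 in vehicle hearts. No digoxin heart reached the vehicle range, and the log2 change of -0.50 (SE 0.11, adjusted p = 0.0836) did not pass. Cnst, the gene of consortin, which takes part in connexin trafficking, was the highest of the list. It read 0.047, 0.36, 0.23, 0.23 and 0.35 in digoxin hearts, against -0.057, 0.00 and -0.17 in vehicle hearts. Every digoxin heart lay above the vehicle range, and the log2 change of 0.32 (SE 0.078, adjusted p = 0.113) passed in limma with digoxin replicate 1 omitted (adjusted p = 0.0466). Groups did not overlap in 5 of the 18 genes, 4 of them higher and 1 lower in digoxin hearts. Over all genes tested, 8.16% had no overlap.

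**Figure D3:**
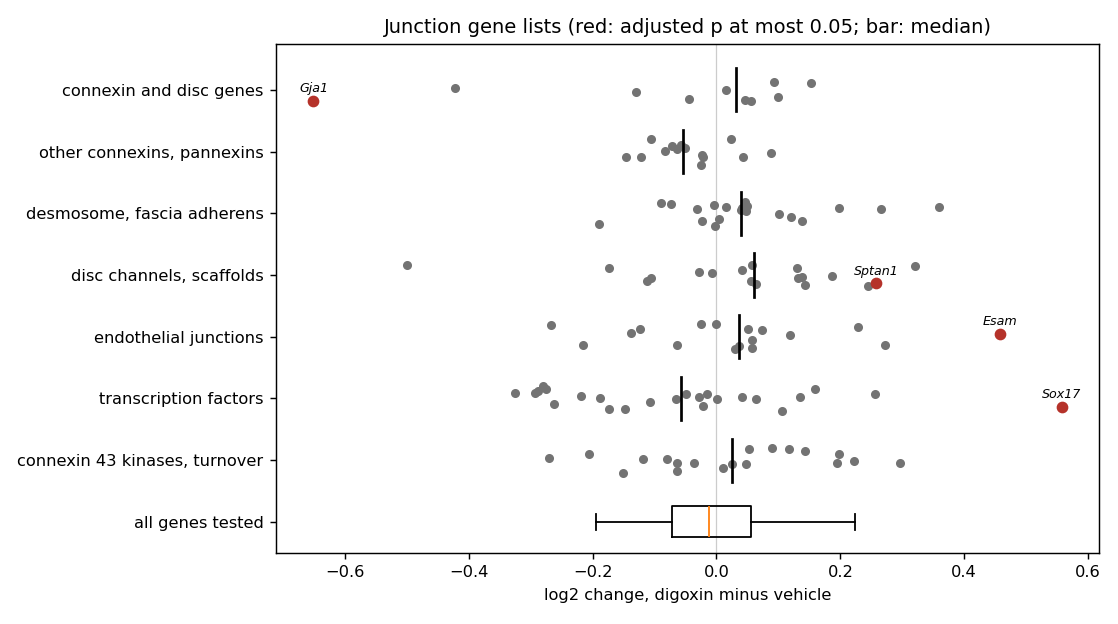
Log2 change, digoxin minus vehicle (x axis), of each gene in the 10 connexin and disc genes and in 6 further lists, with all genes tested as a box (quartiles, whiskers at the 5th and 95th percentile). Red points passed limma at an adjusted p of 0.05 and bars are list medians, which lie between -0.058 and 0.060.

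Among 17 endothelial junction genes, 1 rose and none fell (4 of 17 at an unadjusted p of 0.05), with a median of 0.036. Esam, an adhesion molecule gene of endothelial tight junctions, read 0.17, 0.29, 0.29, 0.39 and 0.43 in digoxin hearts, against -0.11, 0.022 and -0.34 in vehicle hearts. The log2 change was 0.46 (SE 0.089, adjusted p = 0.0486 in limma), and of 8 single omissions the call survived 1, that of vehicle replicate 2 (adjusted p up to 0.127, with digoxin replicate 5 omitted). It was also lost with the atrial mean as a covariate (adjusted p = 0.0556). The mean of 11 endothelial markers overlapped between the groups, at -0.032 to 0.080 in digoxin hearts and -0.17 to 0.073 in vehicle hearts, with vehicle heart 3 the lowest. None of the 11 was called by limma, and 4 had an unadjusted p under 0.05, all 4 without overlap of the groups. Over all genes tested, 12.3% had such a p and 8.16% had no overlap. Cdh5, the gene of VE-cadherin, stood at 0.23, the phosphatase gene Ptprb at 0.27 and the VEGF receptor gene Flt1 at 0.32, each with every digoxin heart above every vehicle heart. Egfl7, a secreted endothelial factor gene, stood at -0.16 with every digoxin heart below. The mean thus joins markers that stood in opposite directions, and their part in the Esam values was not tested.

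Among 24 transcription factors and Notch pathway genes known from the control of cardiac or arterial connexins, 1 rose and none fell, with a median of -0.058. Of the 24, 8 had an unadjusted p under 0.05, against 12.3% of all genes tested. Of these 8, 6 were lower and 2 higher in digoxin hearts, against 1328 lower and 1402 higher over all genes tested. Sox17, an arterial endothelial transcription factor gene, read 0.41, 0.62, 0.52, 0.49 and 0.63 in digoxin hearts, against -0.011, 0.11 and -0.18 in vehicle hearts. Every digoxin heart lay above the vehicle range, and the log2 change was 0.56 (SE 0.076, adjusted p = 0.00985 in limma). The call survived the omission of any 1 of the 8 arrays. Klf4, a Krüppel-like factor gene, stood at 0.26 (SE 0.073, adjusted p = 0.179), also with every digoxin heart above every vehicle heart.

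Groups did not overlap in 5 of the 24, against 8.16% of all genes tested, 4.40% higher and 3.76% lower in digoxin hearts. Of these 5, 3 were among the 6 lower genes. Hey1, a Notch target gene, read -0.19, -0.15, -0.035, -0.25 and -0.12 in digoxin hearts, against 0.15, 0.29 and 0.00 in vehicle hearts. Dll4, the gene of an arterial Notch ligand, read -0.19, -0.12, -0.0040, -0.068 and -0.15 in digoxin hearts, against 0.16, 0.35 and 0.00 in vehicle hearts. As in Gja5, every digoxin heart lay below every vehicle heart and vehicle heart 3 was the lowest of its group. Their log2 changes were -0.29 (SE 0.072, adjusted p = 0.116) and -0.28 (SE 0.079, adjusted p = 0.177), and Hey1 passed in limma with vehicle replicate 3 omitted (adjusted p = 0.039). Gata4, a cardiac transcription factor gene, stood at -0.28 (SE 0.073, adjusted p = 0.139). Foxc1, Klf2 and Tbx18 were the other 3 lower genes, and their groups overlapped.

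Sox17 is also in the list of 8 arterial endothelial markers, where 1 gene rose and 1 fell. Of the 8, 5 had an unadjusted p under 0.05, against 12.3% of all genes tested. The groups did not overlap in 4, against 8.16% of all genes tested. Of these 4, Sox17 was higher and Efnb2, Hey1 and Dll4 were lower in digoxin hearts. The gene that fell was Efnb2, the arterial ligand ephrin-B2, which read -0.27, -0.22, -0.35, -0.38 and -0.36 in digoxin hearts, against 0.032, 0.095 and -0.11 in vehicle hearts. Its log2 change was -0.32 (SE 0.060, adjusted p = 0.0450 in limma), and of 8 single omissions the call survived 1, that of vehicle replicate 3 (adjusted p up to 0.141, with vehicle replicate 2 omitted), and was lost with the atrial mean as a covariate (adjusted p = 0.082). The mean of the 8 markers was 0.029, 0.067, 0.026, 0.032 and -0.011 in digoxin hearts, against 0.074, 0.19 and -0.043 in vehicle hearts. This mean joins genes that stood in opposite directions. It overlapped between the groups, and vehicle heart 3, the lowest, was also the vehicle heart with the lowest Gja5. What part these cells have in the Gja5 values was not tested.

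None of 19 genes for kinases that phosphorylate Cx43 and for its trafficking and turnover was called (3 of 19 at an unadjusted p of 0.05), with a median of 0.024. Prkca, the gene of protein kinase C alpha, stood at 0.30 (SE 0.068, adjusted p = 0.0905) and Mapk7, the gene of the kinase ERK5, at -0.21 (SE 0.060, adjusted p = 0.188). Ptprk, a receptor phosphatase gene, stood at 0.22 (SE 0.081, adjusted p = 0.302), and at 0.10 without vehicle replicate 3. In these 3 genes the groups did not overlap.

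**Figure D4:**
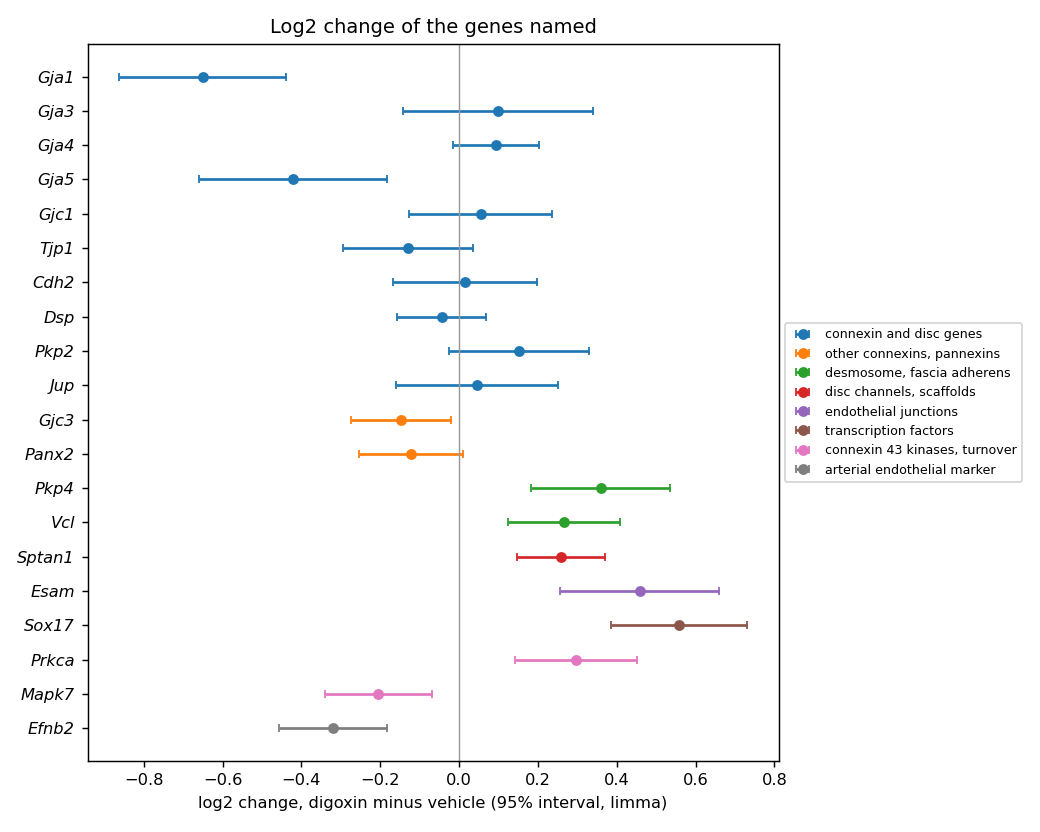
Log2 change, digoxin minus vehicle, with its 95% interval from limma (x axis). The genes (y axis) are the 10 connexin and disc genes, those chosen by rule from the further lists, and the arterial marker Efnb2. Genes picked after their values were seen, such as Kcnj2 and Hey1, are not drawn. Gja1 at -0.65 and Gja5 at -0.42 are the 2 of the 10 whose intervals leave out 0.

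The genes whose pattern over the 8 arrays was most like that of Gja1 were Rap2a (Pearson r 0.97), Gprasp2 (0.96), Ecscr (0.95), Nrp1 (0.95) and Septin11 (0.95). These correlations carry the difference between the groups and come from the same arrays, and they are a description. After each group's mean was removed, r was 0.89 for Rap2a, 0.82 for Septin11, 0.65 for Nrp1, 0.61 for Gprasp2 and 0.59 for Ecscr. Nrp1, the gene of the VEGF and semaphorin coreceptor neuropilin 1, read -0.59, -0.44, -0.60, -0.68 and -0.42 in digoxin hearts, against 0.087, 0.039 and -0.21 in vehicle hearts. As in Gja1, digoxin hearts 2 and 5 were the highest of their group. Its log2 change was -0.52 (SE 0.085, adjusted p = 0.0237 in limma), and the call was lost when digoxin replicate 1 or 3 or vehicle replicate 1 or 2 was omitted (adjusted p up to 0.0972, for vehicle replicate 2) and with the atrial mean as a covariate (adjusted p = 0.0534). Ecscr, an endothelial surface protein gene, stood at -0.36 (SE 0.051, adjusted p = 0.0122 in limma) and lost its call without vehicle replicate 2 (adjusted p = 0.0582). Rap2a, Gprasp2 and Septin11 stood at -0.19, -0.11 and -0.17 and did not pass (adjusted p between 0.130 and 0.228).

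**Figure D5:**
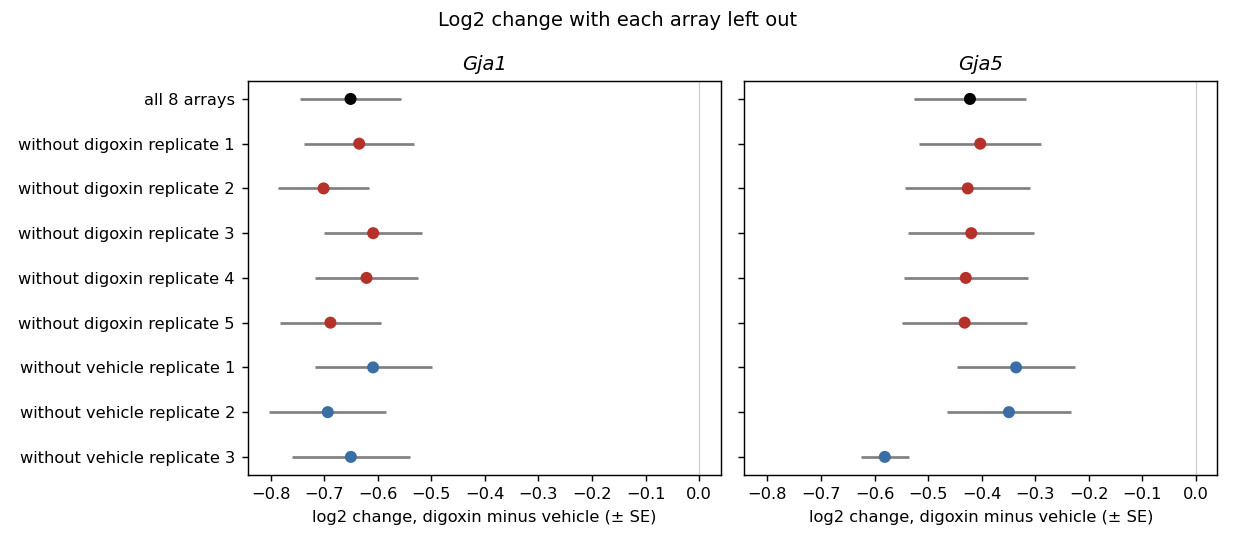
Log2 change of Gja1 (left) and Gja5 (right), digoxin minus vehicle, with its SE (x axis), with all 8 arrays and with each array left out in turn (y axis). Gja1 stays between -0.70 and -0.61, and Gja5 reaches -0.58 once vehicle replicate 3 is omitted and -0.34 once vehicle replicate 1 is.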

How the data were processed

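Labelled cDNA from heart RNA of 5 digoxin and 3 vehicle samples was measured on Mouse Gene 2.0 ST arrays (Affymetrix). The deposited values are log2 expression. The authors normalised them with Robust Multi-array Average, per the labels' design text. The submitters' processing notes also list limma, and no version is stated. Each probe set's deposited log2 values were centred on an unstated constant, which cancels between arrays if it is shared. The log base is taken from the normalization method. No filter on dim genes was possible, and precision is limited by having 8 arrays.

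Of 34351 probe sets, 23521 had 1 symbol in the platform annotation, 1814 several and 9016 none. Values were averaged over the probe sets with 1 symbol, giving 22180 genes. Of the 10 genes described, 9 had 1 probe set and Cdh2 had 2. A further probe set annotated to both Gpr89 and Gja5 was not used. Digoxin and vehicle arrays were compared in limma 3.58.1 (R 4.3.3) (no covariate, two-sided, Benjamini-Hochberg over all genes, threshold 0.05). The fit was run on simulated data as a check of the code. Each simulated gene had the same spread on all arrays, unlike vehicle replicate 3, so nothing about these data is read from it. Promoter sequences are from RefSeq (GRCm38.p6).

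The members and lists were chosen with earlier results of these data known. Genes named beside the 10 were up to 4 genes past the test in each further list, or the 2 of smallest p where none passed, marker genes past the test, and the 5 genes most correlated with Gja1, leaving out unnamed gene models, small RNAs and chemosensory receptors. A further 14 genes were chosen after their values were seen. Of 124 list genes, 12 are not analysed here. The titles number the samples in each group, and nothing says that they are separate animals, so p-values reflect spread among these samples alone, which may be technical. Arrays of vehicle hearts carry lower array numbers than those of digoxin hearts, so treatment and the order of arrays cannot be told apart. No pair of arrays was identical.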

Additional observations from a re-analysis of the deposited data

Results flagged for a closer look

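Of 39 genes given with their values, 2 had a digoxin heart that stood apart from the other 4 by Dixon's criterion, which chance meets in about 1 of 20 groups. Vehicle arrays, at 3, were too few for it. Cdh2 was -0.20 in digoxin heart 4, against -0.0038 to 0.061 in the other digoxin hearts. Ecscr was -0.10 in digoxin heart 2, against -0.25 to -0.22 in the others.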

How the results depend on the processing

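The count of genes that changed, 302 with all arrays (210 higher, 92 lower), was 614 with array weights (320 lower), 500 without digoxin replicate 4 and vehicle replicate 3 together (282 lower), 493 at an adjusted p of 0.1 (327 higher, 166 lower) and 118 at 0.01 (95 higher, 23 lower). With 1 array left out it lay between 166 and 374 (higher 123 to 185, lower 29 to 189, the most without vehicle replicate 3). Of the 10 genes, 2 were called with array weights and without those arrays together, Gja1 and Gja5, and none at 0.01 (limma, 2 at an unadjusted p of 0.05). With 1 array left out 0 to 2 were called, 0 without vehicle replicate 1 (3 at an unadjusted p of 0.05). Gja5 stood at -0.59 without those arrays together. Of the genes in the 6 further lists, 5 were called with quantile normalization, 11 with array weights, 1 with the atrial mean as a covariate (added after the data were seen), 8 at 0.1 and 1 at 0.01, and 1 to 2 with 1 array left out, against 3. The cause of these shifts was not tested. Array weights were 0.19 for vehicle replicate 3 and 0.73 to 1.98 for the other arrays. The weighted fit is therefore not separate from the omission of vehicle replicate 3.

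With the title number as a replicate block over the arrays of replicates 1 to 3, 12 genes changed (11 higher, 1 lower), and 0 of the 10 and 0 of the list genes were called in limma (2 and 19 at an unadjusted p of 0.05). The same 6 arrays with no block, a fit added after the data were seen, gave 80 (67 higher, 13 lower), 0 and 0 (2 and 21). Deviations of same-numbered arrays from their group means had r of -0.20, -0.018 and 0.024 over all genes. Those of differently numbered arrays had r from -0.083 to 0.19. With 3 vehicle arrays these deviations are tied to each other, so r cannot decide whether the numbers pair the samples. Over 19 alternatives each, Gja1 ranged from -0.73 to -0.59 and Gja5 from -0.59 to -0.33.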

Other observations

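The probe set annotated to both Gpr89 and Gja5 averaged 0.067 in digoxin hearts and -0.057 in vehicle hearts. This direction is opposite to that of the Gja5 probe set used, and its values do not separate these genes.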
